A study of Homo sapiens with 51 samples.

Results

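The 10 genes described here encode the Y complex of the nuclear pore: NUP160, NUP85, NUP107, NUP133, NUP37, NUP43, NUP98, SEH1L, SEC13 and AHCTF1. They were chosen by name, not by a filter on their values, though earlier results of these data were known. All 10 symbols matched a single identifier among the 60664 genes of the count tables. The question was which partners respond when NUP160 is lost. RNA was sequenced in 51 libraries of K562, an established human chronic myelogenous leukaemia line, fractionated into a nuclear and a cytoplasmic part with 2 replicates of each genotype. In 16 libraries, called the guide set, CRISPR interference was aimed by a guide at NUP160 (sgNUP160), DDX3 (sgDDX3), CNOT1 (sgCNOT1) or, as the control, the yeast gene Gal4 (sgGal4). The other 35, the transgene set, comprise uninfected cells, cells given sgDDX3 but no transgene (noTG), and cells whose own DDX3 was silenced while a lentivirus supplied DDX3, either wild-type (WT) or with the change T532M, R534S, R376C, R351W, R326H or G325E. R376C has 1 cytoplasmic-labelled library here, and placing the uninfected cells in this set is an assumption. DDX3X counts cannot tell transgene from endogenous transcripts.

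The content of the fractions ran against their labels, so they are named only as labelled. MALAT1, a long non-coding RNA that stays in the nucleus, stood at 1538 to 3527 CPM (counts scaled to the library size) over 25 nuclear-labelled libraries and at 19032 to 33695 CPM over 25 cytoplasmic-labelled ones. The share of reads in no gene feature was 5.14% to 10.5% under the nuclear and 50.4% to 69.2% under the cytoplasmic label. R376C nuclear-labelled replicate 2, with 62.8%, resembled the other label and was left out, which leaves 50 libraries. Gene counts per library ran from 3716156 to 21365002 in the nuclear-labelled and from 2354961 to 10386022 in the cytoplasmic-labelled libraries, and the shallowest were those of sgNUP160, with 3107189 and 2354961 cytoplasmic-labelled counts. Of 8 erythroid markers of K562, GATA1 stood at 91.4 to 300.4 CPM over both labels, while HBE1 was at 0 in all libraries. Among markers of other cell types KRT5 was at 0 throughout and EPCAM at 12.8 to 39.9 CPM.

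The nuclear pore complex is the gate through which RNA and protein pass between nucleus and cytoplasm. The Y complex builds its outer rings on both faces of the nuclear envelope. NUP160, NUP85, NUP37, NUP43, SEH1L, SEC13 and the product NUP96 form its arms and hub, and NUP107 and NUP133 form its stalk. NUP96 is cut from a precursor encoded by NUP98, whose other product lines the channel with FG repeats. AHCTF1 encodes ELYS, which binds chromatin and starts the building of pores after mitosis. SEC13 also belongs to the COPII coat of vesicles leaving the endoplasmic reticulum, and SEC13 and SEH1L to GATOR2, a regulator of mTORC1.

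CRISPR interference holds a repressor at a promoter, so the stretch before the NUP160 start is shown. Beside it are those of NUP85 and NUP107, the partners that fell with its guide. That of NUP37, among the 6 members that fell with sgDDX3 in the nuclear-labelled libraries, is shown too. The sequences are RefSeq's, from the GRCh38.p14 table, and each is the 250 bases before the start, read 5′ to 3′ on the gene's strand.
NUP160, chr11:47848545-47848794, minus strand: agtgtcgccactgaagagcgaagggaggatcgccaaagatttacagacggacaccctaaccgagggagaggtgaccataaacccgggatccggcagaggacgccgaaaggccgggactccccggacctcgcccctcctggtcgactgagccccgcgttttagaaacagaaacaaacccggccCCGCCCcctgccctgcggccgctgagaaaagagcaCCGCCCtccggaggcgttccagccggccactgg
NUP85, chr17:75205429-75205678, plus strand: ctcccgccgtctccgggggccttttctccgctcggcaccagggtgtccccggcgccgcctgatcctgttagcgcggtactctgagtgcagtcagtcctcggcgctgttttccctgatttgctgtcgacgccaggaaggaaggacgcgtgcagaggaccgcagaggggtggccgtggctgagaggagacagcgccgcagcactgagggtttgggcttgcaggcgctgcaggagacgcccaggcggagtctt
NUP107, chr12:68686728-68686977, plus strand: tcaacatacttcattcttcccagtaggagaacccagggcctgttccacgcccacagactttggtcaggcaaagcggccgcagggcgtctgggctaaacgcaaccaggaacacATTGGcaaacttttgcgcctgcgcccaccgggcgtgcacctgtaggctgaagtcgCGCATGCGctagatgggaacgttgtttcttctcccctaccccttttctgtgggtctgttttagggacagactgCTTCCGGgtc
NUP37, chr12:102120115-102120364, minus strand: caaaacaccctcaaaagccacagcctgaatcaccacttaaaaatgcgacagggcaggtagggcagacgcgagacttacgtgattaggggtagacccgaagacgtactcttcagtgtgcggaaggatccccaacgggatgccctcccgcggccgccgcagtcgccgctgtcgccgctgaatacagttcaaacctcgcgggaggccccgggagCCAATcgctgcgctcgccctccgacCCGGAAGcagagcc
Capitals mark matches, on either strand, to 7 short motifs: the GC box (GGGCGG), the CCAAT box (CCAAT), the ETS core (CCGGAAG), the NRF1 core (GCATGCG), the YY1 core (AAGATGG), the CREB core (TGACGTC) and the E-box of MYC (CACGTG). The NUP160 stretch holds 2 GC boxes, and 42.6% of all 35116 promoters of the table hold at least 1. NUP107 and NUP37 each hold a CCAAT box, present in 32% of promoters, and an ETS core, present in 8.52%. SEC13, which also fell with sgDDX3, holds an ETS core, while NUP85 and NUP133 fell there and hold neither motif. SEH1L holds an ETS core and NUP98 a CCAAT box, and neither gene was called there. NUP107 also holds the NRF1 core, present in 3.39%, in 2 overlapping matches. NUP85 matched none of the 7 motifs in these letters. No promoter entry was at hand for NUP43, which also fell with sgDDX3, or for AHCTF1. Of the 8 members with an entry, 5 held a GC box, 4 an ETS core, 3 a CCAAT box and 1 the NRF1 core. NUP133 alone held the CREB core, found in 3.12% of promoters. The YY1 core and the E-box, at 3.7% and 6.34% of promoters, were found in 0 of the 8. A match describes the letters and is not evidence of a bound factor.

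All members were expressed in every library. Per kb of annotated exon, in the sgGal4 nuclear-labelled libraries, the NUP43 level was the highest, at 32.2 ± 0.453 CPM per kb (mean ± SD, n = 2). NUP133 followed at 28.1 ± 3.56 and SEC13 at 27.6 ± 3.58, and these neighbours lay within their spread. NUP98 (22.6 ± 2.29), NUP160 (20.6 ± 1.21), AHCTF1 (20.1 ± 1.33) and NUP107 (17.0 ± 0.516) came next, then NUP37 (14.3 ± 2.20) and NUP85 (13.4 ± 0.721). SEH1L was the lowest at 6.48 ± 0.174 CPM per kb. In the cytoplasmic-labelled libraries AHCTF1 led at 23.1 ± 1.59 CPM per kb, followed by NUP85 at 20.0 ± 1.44, and NUP37 and SEH1L were again the lowest, at 5.18 ± 0.806 and 3.0 ± 0.176. Members thus differed in level, and SEH1L, whose annotated exons are the longest of the 10 at 10.5 kb, stood at the bottom under both labels.

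**Figure D1:**
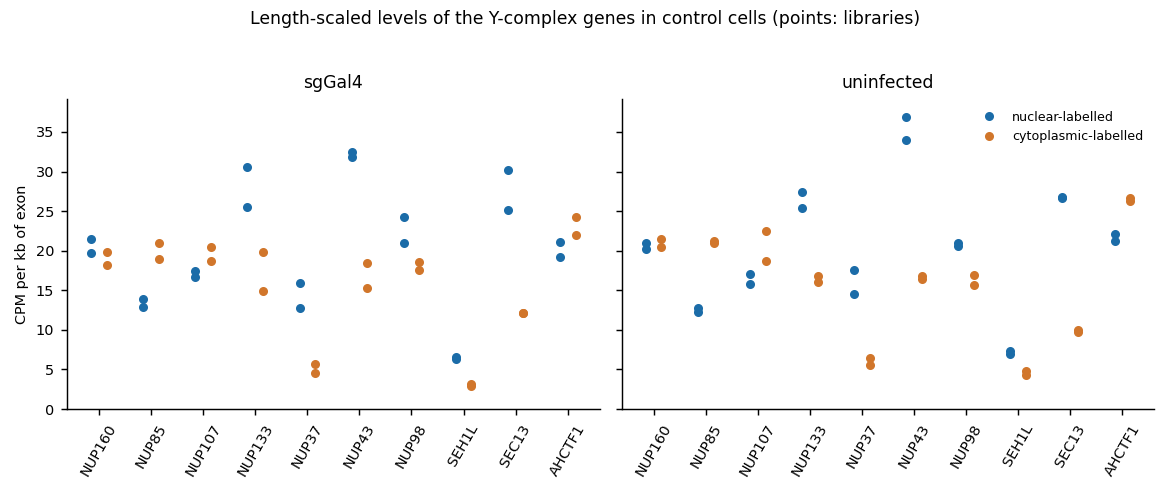
Levels of the 10 members as CPM per kb of exon (y axis) in sgGal4 and uninfected cells, each point a library, in the nuclear-labelled (blue) and cytoplasmic-labelled (orange) fraction, scaled over both fractions together. SEC13, NUP43, NUP37 and SEH1L stand higher in the nuclear-labelled libraries, and NUP85 stands higher in the cytoplasmic-labelled ones.

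Levels were compared between the labels. In a joint fit of both fractions, 7 of 10 members differed between the labels in sgGal4 cells, against 65% of all genes tested, and 9 of 10 in uninfected cells, against 72.5%. In sgGal4 cells 6 members were higher under the nuclear label and 1 lower, against 29.7% and 35.4% of genes, and in uninfected cells 6 and 3, against 31.8% and 40.7%. Under both labels NUP37, which binds NUP160, was counted at 55.4 and 44.5 CPM in the sgGal4 nuclear-labelled libraries and at 20.1 and 16.1 CPM in the cytoplasmic-labelled ones. These groups do not overlap, and the log2 difference was 1.47 ± 0.22 (SE). SEC13, the vesicle coat subunit, stood at 164.4 and 136.8 CPM against 66.1 and 66.2 CPM, a difference of 1.19 ± 0.15. SEH1L (1.11 ± 0.17), NUP43 (0.92 ± 0.16) and NUP133 (0.69 ± 0.16) were higher in the nuclear-labelled libraries as well, and so was NUP98 (0.33 ± 0.14). NUP98 turned to -0.06 with scaling by library size only, lost the call with RLE scaling, DESeq2, the CPM filter and no filter, and lost it without 3 of the 4 libraries (0.21 without nuclear-labelled replicate 1).

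NUP85, the scaffold that carries SEH1L, went the other way. It was counted at 72.3 and 67.0 CPM in the nuclear-labelled and 98.3 and 108.9 CPM in the cytoplasmic-labelled sgGal4 libraries, with no overlap, and differed by -0.57 ± 0.16. The call was lost with unstranded counts and without replicate 2 of either label (-0.47 and -0.45). NUP160 did not pass the test in either control, with 0.12 ± 0.15 in sgGal4 and -0.03 ± 0.08 in uninfected cells. In uninfected cells NUP133 (0.69 ± 0.09), SEH1L (0.66 ± 0.11) and NUP98 (0.35 ± 0.08) were higher again under the nuclear label. With library size only they gave 0.08, 0.05 and -0.25, the first 2 not called, and NUP98 was not called with RLE scaling or DESeq2 either. NUP133 in sgGal4 also lost its call with library size only (0.31). In uninfected cells NUP107 (-0.32 ± 0.09) and AHCTF1 (-0.29 ± 0.08) were lower in the nuclear-labelled libraries too. With unstranded counts these differences turned to 0.03 for NUP107 and 0.08 for AHCTF1, and NUP107 lost the call without cytoplasmic-labelled replicate 1 (-0.19). The median over all genes was -0.22 in sgGal4 and -0.32 in uninfected cells, and it shifted by -0.40 and -0.60 with scaling by library size only. The median of the members was 0.51 in both.

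The guide against NUP160 lowered its target under both labels. NUP160 was at 147.5 and 148.4 CPM in the sgGal4 nuclear-labelled libraries and at 15.4 and 12.3 CPM in the sgNUP160 ones. The cytoplasmic-labelled libraries gave 196.1 and 179.1 CPM against 12.6 and 15.9 CPM. The groups lie far apart, with log2 changes of -3.38 ± 0.12 (adjusted p = 9.5e-19) and -3.70 ± 0.22 (adjusted p = 2.2e-07) by edgeR, or 9.63% and 7.69% of the control level. In bulk libraries fewer cells and less RNA per cell cannot be told apart. In the other 23 libraries of each label NUP160 ranged from 123.8 to 219.4 CPM (nuclear-labelled) and from 138.6 to 226.8 CPM (cytoplasmic-labelled).

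The gene lies at chr11:47778087-47848555 on the minus strand. By distance between the nearest gene edges, FNBP4 at 10.6 kb, AGBL2 at 62.7 kb, MTCH2 at 135.5 kb and PTPRJ at 132.0 kb were tested. FNBP4, AGBL2 and MTCH2 lie past the end of NUP160, away from its start, and PTPRJ lies on the side of its start. The olfactory receptor genes OR4B1 and OR4X2 did not pass the expression filter. By edgeR, 0 of these 4 tested neighbours were called with sgNUP160 under either label, against 15.9% (nuclear-labelled) and 15.2% (cytoplasmic-labelled) of all genes. Under each label 2 had an unadjusted p under 0.05. Their log2 changes ran from -0.24 to 0.49 in the nuclear-labelled and from -0.50 to 1.0 in the cytoplasmic-labelled libraries. FNBP4 changed by 0.32 ± 0.11 in the nuclear-labelled (adjusted p = 0.051) and by -0.22 ± 0.15 in the cytoplasmic-labelled libraries (adjusted p = 0.35).

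**Figure D2:**
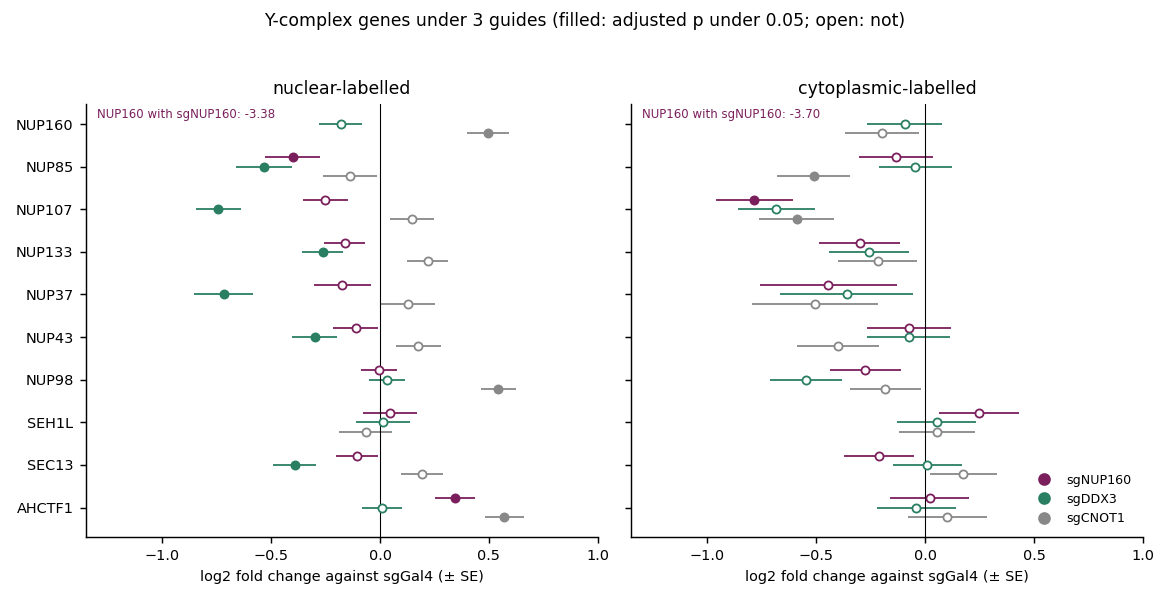
log2 fold change against sgGal4 (x axis, ± SE) of each member with sgNUP160, sgDDX3 and sgCNOT1, 2 libraries a group, nuclear-labelled at left and cytoplasmic-labelled at right. Filled points have an adjusted p under 0.05. NUP160 with its own guide lies beyond the axis and is written in (-3.38 and -3.70). The sgNUP160 points of the partners are filled at NUP85 and AHCTF1 at left and at NUP107 at right.

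The partners were then read in the sgNUP160 libraries. In the nuclear-labelled libraries 2 of 9 partners passed the test, against 15.9% of all genes. AHCTF1, the ELYS gene, rose, as did 7.36% of genes, and NUP85 fell, as did 8.54%. AHCTF1 was counted at 207.2 and 206.2 CPM with sgNUP160 and at 162.1 and 161.3 CPM with sgGal4. Each group was tight and they do not overlap, giving 0.34 ± 0.09 (adjusted p = 0.0091), or 127% of control. NUP85 was at 48.0 and 39.8 CPM against 58.0 and 58.8 CPM. Both sgNUP160 libraries lay below the control, by -0.40 ± 0.13 (adjusted p = 0.029), or 75.7% of control.

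These 2 calls sit near the threshold. Without any 1 of the 4 libraries AHCTF1 kept its size, 0.33 to 0.36, and lost the call, at adjusted p = 0.058 to 0.095. NUP85 lost the call without 3 of the 4, with a lowest value of -0.57 and a highest of -0.29, and kept it without sgNUP160 replicate 1. It also lost it with DESeq2 (adjusted p = 0.051) and without the low-count filter (adjusted p = 0.071), where only AHCTF1 was called.

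The other 7 partners did not pass in the nuclear-labelled libraries, though NUP107 did in a fit of only the compared groups (-0.21, adjusted p = 0.037). NUP107, the stalk subunit next to NUP133, was at 107.8 and 91.3 CPM against 116.1 and 121.5 CPM, below the control in both, and the change was -0.25 ± 0.10 (adjusted p = 0.098). NUP133 gave -0.16 ± 0.09, NUP37 -0.17 ± 0.13, NUP43 -0.11 ± 0.10 and SEC13 -0.11 ± 0.10. SEH1L gave 0.04 ± 0.12, with values from -0.11 to 0.15 as each library was left out. NUP98 was at 187.7 and 189.0 CPM against 192.4 and 182.1 CPM, within the control pair, with a 95% interval of -0.17 to 0.16 for the log2 change. For NUP37, the direct partner of NUP160, that interval was -0.44 to 0.10, and for NUP133 -0.36 to 0.03. The median of the 9 partners was -0.11, beside -0.01 for all genes tested. Reads in no gene feature were at 8.92% and 9.0% in these sgNUP160 libraries and at 7.17% and 6.81% in sgGal4, and their part was not tested.

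Under the cytoplasmic label 1 of 9 partners passed, against 15.2% of all genes, 8.13% of them lower. NUP107 fell from 196.7 and 178.1 CPM in sgGal4 to 108.6 and 104.6 CPM in sgNUP160. The groups do not overlap, and the change was -0.79 ± 0.18 (adjusted p = 0.0099), or 58.0% of control. The call was lost without sgGal4 replicate 1 or either sgNUP160 library, with values of -0.74 to -0.86 and adjusted p = 0.075 to 0.11, and held without sgGal4 replicate 2. Over the other alternatives NUP107 stayed called, at -0.98 to -0.60.

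AHCTF1, called under the nuclear label, was at 264.7 and 244.1 CPM against 269.2 and 242.1 CPM here, so the pairs overlap (0.02 ± 0.18, 95% interval -0.37 to 0.41). NUP85 was at 108.3 and 104.6 CPM against 113.6 and 124.8 CPM (-0.13 ± 0.17). NUP37, the lowest counted member with 27 to 186 reads a library under this label, was at 19.4 and 10.2 CPM against 23.2 and 18.4 CPM (-0.44 ± 0.31). Its sgNUP160 libraries differ from each other more than the means do. NUP133 (-0.30 ± 0.19), NUP98 (-0.27 ± 0.16), SEC13 (-0.21 ± 0.16), NUP43 (-0.07 ± 0.19) and SEH1L (0.25 ± 0.18) did not pass. The median of the 9 was -0.21, beside 0.03 for all genes.

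Reads in no gene feature moved with the guide under this label, at 66.4% and 69.2% in the sgNUP160 and 51.9% and 55.4% in the sgGal4 libraries. MALAT1 was at 19209 and 19032 CPM against 26396 and 24940 CPM. Their part in the NUP107 result was not tested.

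Whether a partner's response differed between the labels was tested as the change in the nuclear-labelled over cytoplasmic-labelled ratio. By edgeR 0 of 9 partners were called, against 3.66% of all genes, and 1, NUP107, had an unadjusted p under 0.05. DESeq2 called 0 as well. NUP107 gave 0.62 ± 0.22 (adjusted p = 0.12) and was called with unstranded counts (0.85), in a fit of only the compared groups (0.60) and without sgNUP160 nuclear-labelled replicate 2 (0.86), with adjusted p = 0.0031 to 0.50 over all alternatives. AHCTF1 gave 0.40 ± 0.22, with a 95% interval of -0.04 to 0.85. The median over all genes was 0.13 in this contrast. It was 0.25 with unstranded counts and -0.11 with scaling by library size only, so these sizes include a shift that depends on scaling. A difference between the labels was therefore not shown for any partner.

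The other guides, which share the sgGal4 libraries, were read on the same members. With sgDDX3, which took DDX3X from 254.5 and 267.5 CPM to 38.4 and 41.3 CPM in the nuclear-labelled libraries, 6 of 10 members fell, against 14.9% of all genes that fell and 31.3% called in either direction. NUP107 was at 70.9 and 67.6 CPM against 116.1 and 121.5 CPM in sgGal4. The groups lie well apart, at -0.74 ± 0.10 (adjusted p = 2.3e-06), or 59.8% of control. NUP37 was at 25.0 and 25.1 CPM against 44.4 and 39.0 CPM, a fall of the same order (-0.72 ± 0.14, adjusted p = 0.00013). NUP85 (-0.53 ± 0.13) and SEC13 (-0.39 ± 0.10) fell less. NUP43 (-0.30 ± 0.10) and NUP133 (-0.26 ± 0.09) fell too, but lost the call without 3 and 4 of the 4 libraries in turn (-0.23 and -0.19 at the least). NUP85 lost it without sgDDX3 replicate 1 (-0.41) and SEC13 without sgGal4 replicate 1 (-0.32).

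The other 4 members did not pass with sgDDX3. NUP160 was at 123.8 and 131.1 CPM against 147.5 and 148.4 CPM, -0.18 ± 0.10. By edgeR it did pass in a fit of only the compared groups (adjusted p = 0.019). NUP98 (0.03 ± 0.08), SEH1L (0.01 ± 0.12) and AHCTF1 (0.01 ± 0.09) lay close to 0, and AHCTF1 had a 95% interval of -0.18 to 0.20. The median of the 10 was -0.28, beside 0.01 for all genes. In the cytoplasmic-labelled libraries edgeR called 0 of 10, against 2.77% of genes, with 2 at an unadjusted p under 0.05, and DESeq2 called 1. The 2 were NUP107, at 116.7 and 113.9 CPM against 196.7 and 178.1 CPM (-0.68 ± 0.18, adjusted p = 0.051), and NUP98 (-0.55 ± 0.17, adjusted p = 0.089). edgeR called NUP107 with RLE scaling or the CPM filter, and both genes without the low-count filter or with only the compared groups, so the count of 0 rests on these settings.

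Set against each other directly, sgNUP160 and sgDDX3 differed in 4 of 9 partners in the nuclear-labelled libraries, all higher with sgNUP160, where 34.3% of all genes differed and 15.7% were higher. They were NUP37 (0.55 ± 0.13), NUP107 (0.49 ± 0.10), AHCTF1 (0.33 ± 0.09) and SEC13 (0.29 ± 0.10). SEC13 lost the call without any 1 library, and NUP107 and AHCTF1 without sgNUP160 replicate 1 (0.35 and 0.32). NUP85, which fell under both guides, did not pass (0.13 ± 0.12, 95% interval -0.12 to 0.39). In the cytoplasmic-labelled libraries 0 of 9 were called by edgeR and by DESeq2, against 5.02% of genes by edgeR, with 0 at an unadjusted p under 0.05. NUP107, low under both guides there, differed by -0.10 ± 0.18 (95% interval -0.49 to 0.28).

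With sgCNOT1, which removed the scaffold of the CCR4-NOT deadenylase (CNOT1 at 43.4 and 42.3 CPM against 802.6 and 804.5 CPM), the nuclear-labelled libraries showed rises. AHCTF1 (0.57 ± 0.09), NUP98 (0.54 ± 0.08) and NUP160 itself (0.49 ± 0.10) passed the test, 3 of 10 members, against 49.6% of all genes in either direction and 26.5% that rose. NUP160 was at 194.0 and 219.4 CPM, above the control pair, and the second value was its highest among the nuclear-labelled libraries. AHCTF1 was at 216.2 and 260.5 CPM, also above both controls. NUP133, at 161.1 and 169.6 CPM against 149.3 and 136.2 CPM, was called higher with RLE scaling, library size only or unstranded counts. NUP43 and SEC13 were called higher with library size only. Against sgCNOT1, 7 of 9 partners were lower with sgNUP160, where 50.8% of genes differed and 27.4% were lower. The largest differences were NUP98 (-0.55 ± 0.08) and NUP107 (-0.40 ± 0.10), and this count fell to 1 without sgNUP160 replicate 2 and to 3 in a fit of only the compared groups.

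Among cytoplasmic-labelled libraries sgCNOT1 lowered 2 of 10 members, NUP107 (-0.59 ± 0.17) and NUP85 (-0.51 ± 0.17), against 22% of genes called and 9.01% that fell. The sgCNOT1 replicates themselves differed, with NUP107 at 147.7 and 101.8 CPM, AHCTF1 at 334.3 and 216.6 CPM, and reads in no gene feature at 50.4% and 60.5%. Without replicate 1 the count was 7, and without either sgGal4 library it was 0. Between sgNUP160 and sgCNOT1 here 0 of 9 were called by edgeR and by DESeq2, against 23.1% of genes, with 2 at an unadjusted p under 0.05.

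**Figure D3:**
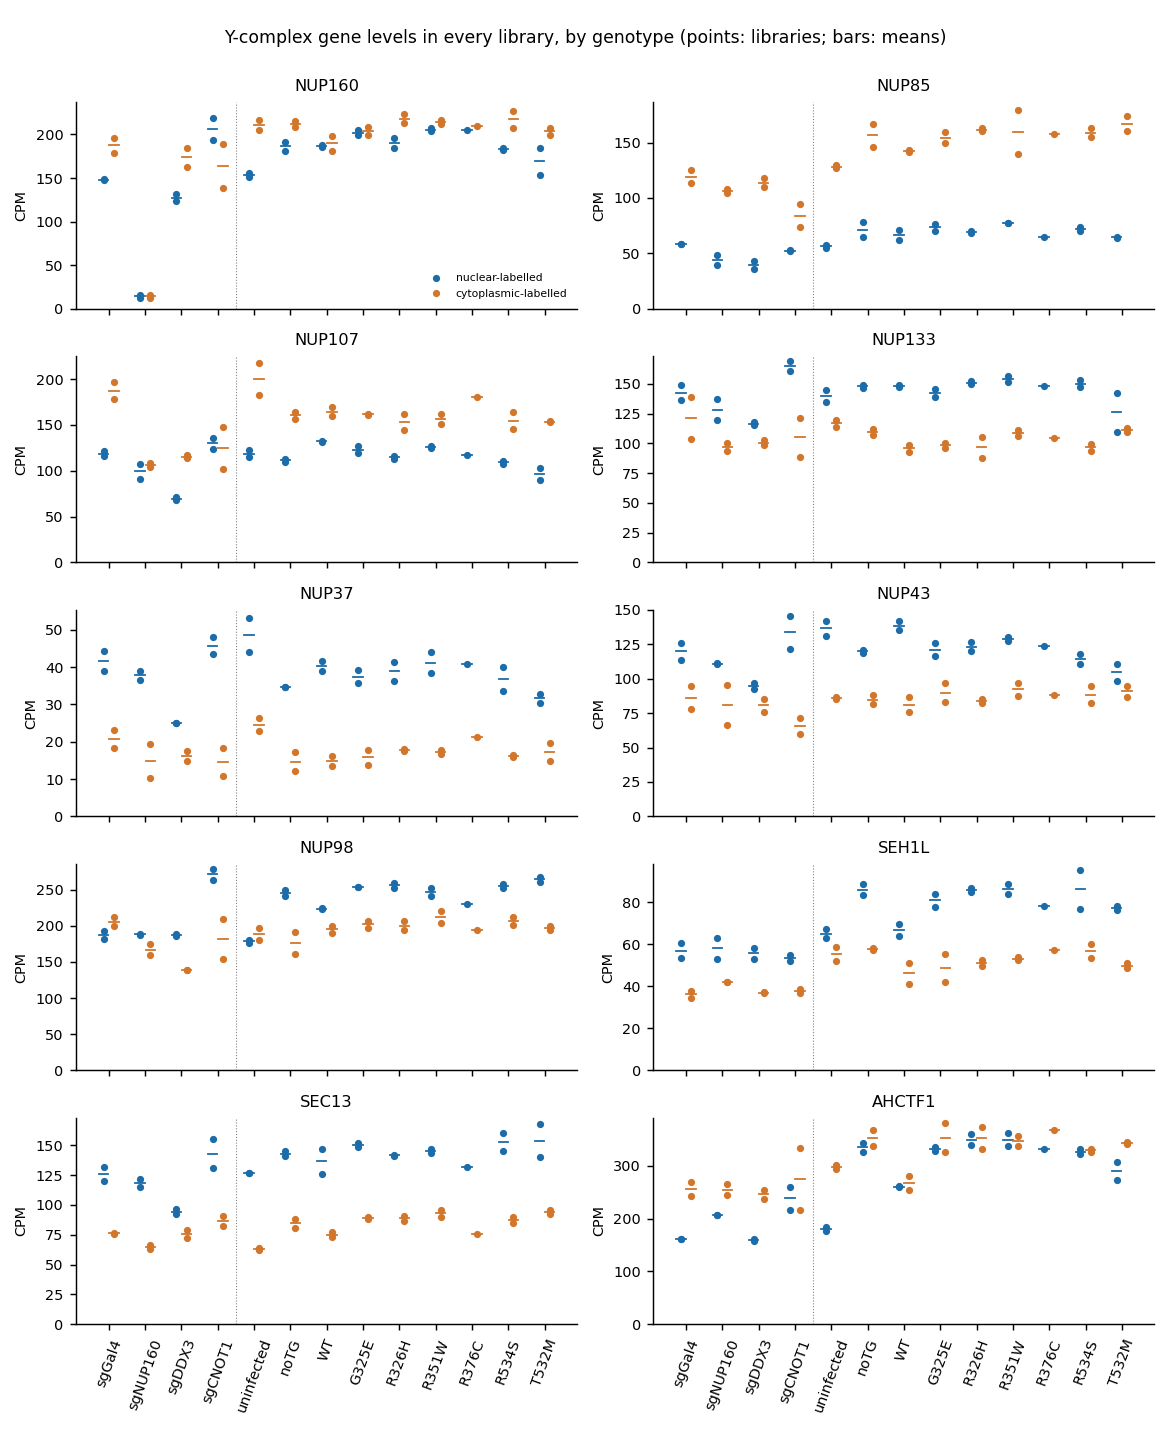
Level of each member in CPM (y axis, from 0) in every library of the 13 genotypes (x axis), nuclear-labelled in blue and cytoplasmic-labelled in orange, each fraction scaled on its own, with bars at the means and a dotted line between the guide and the transgene set. NUP160 is at 12.3 to 15.9 CPM in the sgNUP160 libraries and at 123.8 CPM or more in the others, and the nuclear-labelled AHCTF1 level is lowest in sgDDX3, sgGal4 and uninfected cells.

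The transgene set holds cells with DDX3 lowered and put back. Both noTG and WT differ from uninfected cells in infection and guide as well as in DDX3. Contrasts with uninfected cells cannot tell these apart. DDX3X was at 288.1 and 301.6 CPM in uninfected, 149.3 and 149.9 CPM in noTG and 375.7 and 365.9 CPM in WT nuclear-labelled libraries. AHCTF1 was the member that varied most here. It was counted at 184.8 and 177.1 CPM in uninfected, 260.9 and 260.0 CPM in WT and 325.7 and 343.2 CPM in noTG libraries, with no overlap between the genotypes. The log2 changes were 0.88 ± 0.06 for noTG and 0.52 ± 0.06 for WT against uninfected cells, and 0.35 ± 0.06 for noTG against WT (adjusted p = 8e-22, 3.4e-11 and 1.2e-06 by edgeR). All 3 held without each library in turn. With R376C nuclear-labelled replicate 2 in the fit, AHCTF1 alone of the members passed in noTG against uninfected cells, and none did in the other contrasts (counts of 1, 0 and 0).

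Against uninfected cells, noTG changed 8 of 10 members in the nuclear-labelled libraries, 6 up and 2 down, where 39% of genes were called, 19.7% up and 19.3% down. NUP98 (0.45 ± 0.06), SEH1L (0.40 ± 0.09), NUP85 (0.33 ± 0.09), NUP160 (0.27 ± 0.06) and SEC13 (0.17 ± 0.07) rose with AHCTF1. NUP37 (-0.49 ± 0.11) and NUP43 (-0.20 ± 0.07) fell. NUP160 was at 181.3 and 191.5 CPM in noTG against 156.2 and 150.7 CPM in uninfected cells, with no overlap. WT against uninfected cells gave 4 rises, against 21.2% of genes called and 10.9% that rose: AHCTF1, NUP98 (0.32 ± 0.06), NUP160 (0.28 ± 0.06) and NUP85 (0.24 ± 0.09). Scaling by library size only moved the median of all genes in that contrast by 0.14 and called 7 members. NUP85 in WT lost the call with DESeq2 or unstranded counts and without WT replicate 2 (0.14) or either uninfected library. In noTG it lost the call without noTG replicate 2 (0.19). SEC13 in noTG lost its call with DESeq2, unstranded counts or no low-count filter and without any 1 of the 4 libraries (0.15 to 0.20). NUP43 lost its call there with DESeq2 or library size only and without 3 of the 4 libraries (-0.14 without uninfected replicate 2).

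Against WT, noTG changed 4 members, against 18% of genes, 9.23% higher and 8.73% lower. AHCTF1 and SEH1L (0.37 ± 0.08) rose, and NUP107 (-0.25 ± 0.07) and NUP43 (-0.21 ± 0.07) fell. NUP107 lost its call without noTG replicate 1 (-0.23), and NUP43 kept its call only without WT replicate 2 (-0.25). NUP160 differed by -0.01 ± 0.06 (95% interval -0.14 to 0.12). In the guide set the same guide lowered NUP107, NUP37, NUP85, SEC13, NUP43 and NUP133 and left AHCTF1 at 0.01 ± 0.09. NUP107 and NUP43 thus fell in both sets. Mean DDX3X was 39.9 CPM in sgDDX3 against 261.0 CPM in sgGal4, and 149.6 CPM in noTG against 370.8 CPM in WT. The guide-set comparisons have other controls, and the difference between the sets was not tested. In the cytoplasmic-labelled libraries the counts were 1 of 10 for noTG against WT (AHCTF1, 0.40 ± 0.09, 8.4% of genes called) and 1 for WT against uninfected cells (NUP37, -0.77 ± 0.21, 8.27% of genes). They were 3 for noTG against uninfected cells, NUP37 (-0.76 ± 0.21), NUP107 (-0.33 ± 0.10) and SEC13 (0.41 ± 0.11), against 25.8% of genes. AHCTF1 in noTG lost its call without WT replicate 1 (0.32, adjusted p = 0.14). NUP37 in WT lost it without any 1 of the 4 libraries, and in noTG without uninfected replicate 1 or noTG replicate 2 (-0.66 and -0.51). In noTG, NUP107 lost it without the same 2 libraries (-0.20 and -0.28) and SEC13 without uninfected replicate 2 (0.39).

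**Figure D4:**
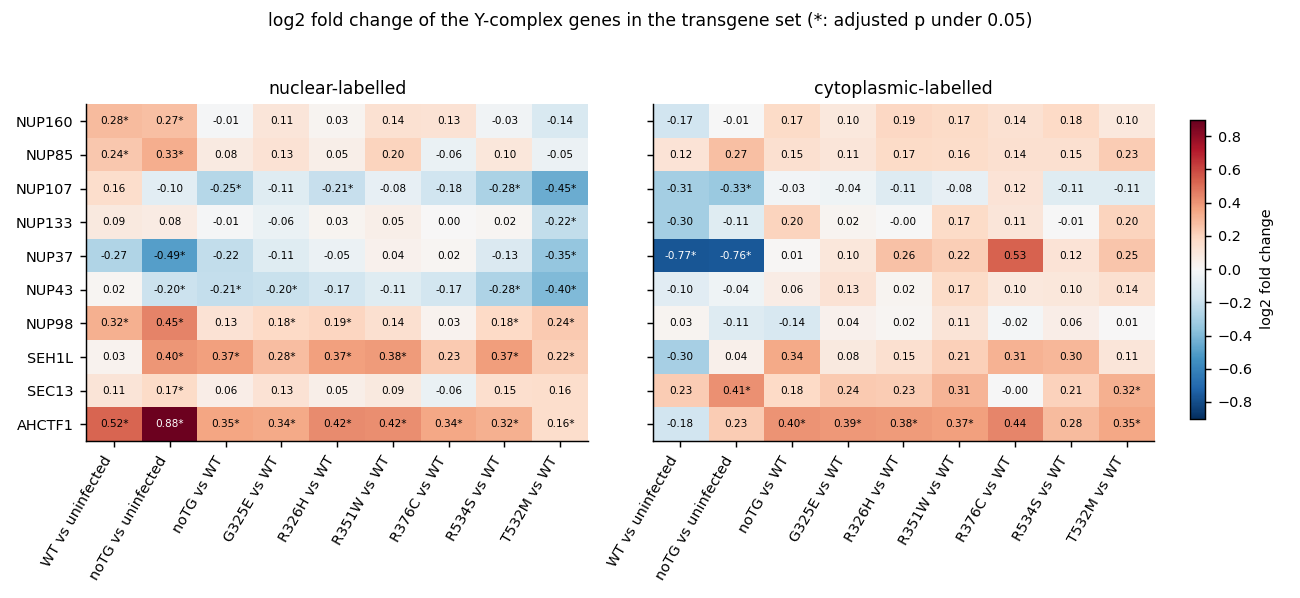
log2 fold change of each member (rows) in the contrasts of the transgene set (columns), nuclear-labelled at left and cytoplasmic-labelled at right, coloured from blue (lower) to red (higher), with a star at an adjusted p under 0.05. The 7 columns against WT share the WT libraries. AHCTF1 carries a star in each nuclear-labelled column, with the smallest value, 0.16, in T532M, which is 0.05 with scaling by library size only.

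The 6 DDX3 mutants were each set against WT. Since they share the 2 WT libraries, their counts are not independent. In the nuclear-labelled libraries 23 of 60 pairs of member and mutant passed, against 18% of all pairs of gene and mutant, of which 8.99% were higher and 9.05% lower. The cytoplasmic-labelled ones gave 5 of 60, against 6.66%, and all 5 were higher, against 2.73%. R376C has 1 library under each label, so its tests assume that it varies like the other groups. AHCTF1 was higher than in WT in 6 of 6 mutants of the nuclear-labelled libraries, from 0.16 ± 0.06 in T532M to 0.42 ± 0.06 in R326H. Its lowest mutant library, T532M replicate 2, was at 273.6 CPM and its highest, R351W replicate 1, at 361.0 CPM, while WT was at 260.9 and 260.0 CPM. The mutant libraries thus lay above both WT libraries. In T532M the call was lost without T532M replicate 1 (0.07), without either WT library, without the low-count filter and with scaling by library size only.

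SEH1L, the GATOR2 and pore subunit, was higher in 5 of 6 mutants, from 0.22 ± 0.09 in T532M to 0.38 ± 0.08 in R351W. It stood at 84.1 and 88.8 CPM in R351W and at 69.4 and 63.8 CPM in WT, without overlap. In R376C, with its single library at 78.3 CPM, it did not pass (0.23). NUP98 was higher in G325E, R326H, R534S and T532M, by 0.18 to 0.24. NUP98 lost the call without any 1 library in G325E and R534S, and without 3 of 4 in R326H. It also lost the call without the low-count filter in G325E and R534S and with library size only in R534S and T532M. SEH1L lost it in T532M with DESeq2, library size only (0.10), no low-count filter or only the compared groups, and without 3 of 4 libraries (0.16 without WT replicate 2). It also lost it without 2 in G325E (0.22) and without R534S replicate 2 in R534S (0.20). NUP107 was lower in R326H (-0.21), R534S (-0.28) and T532M (-0.45), and NUP43 in G325E (-0.20), R534S (-0.28) and T532M (-0.40). NUP107 in R326H lost the call without any 1 library and NUP43 in R534S without R534S replicate 2 (-0.24). NUP43 in G325E lost it with DESeq2 and without 3 of 4 libraries (-0.14 without G325E replicate 1).

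T532M had the most called members, 7 of 10, against 35.1% of genes called in that mutant. NUP107 was at 102.9 and 90.5 CPM there and at 131.8 and 132.9 CPM in WT, with no overlap (-0.45 ± 0.07, adjusted p = 6.7e-07). NUP37 (-0.35 ± 0.12) and NUP133 (-0.22 ± 0.07) were lower in T532M, and both lost the call with DESeq2. Without T532M replicate 2, at 109.9 CPM of NUP133, that gene gave -0.06, and NUP37 lost its call without that library or WT replicate 2 (-0.30 and -0.29). NUP160 gave -0.14 ± 0.07 in T532M to 0.14 ± 0.06 in R351W and did not pass, at 153.4 to 206.9 CPM over the mutant libraries. NUP85 did not pass either, from -0.06 ± 0.11 in R376C to 0.20 ± 0.08 in R351W. The cytoplasmic-labelled libraries had AHCTF1 higher in G325E, R326H, R351W and T532M (0.35 to 0.39) and SEC13 in T532M (0.32 ± 0.11). The AHCTF1 calls were lost without WT replicate 1 (0.27 to 0.32), and SEC13 lost its call without any 1 library. With R376C nuclear-labelled replicate 2 in the fit, 1 of the 60 nuclear-labelled pairs was called.

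Across the 13 genotypes, each label scaled over both sets, AHCTF1 spanned the widest range of the partners in the nuclear-labelled libraries, from 157.9 CPM in sgDDX3 to 361.0 CPM in R351W, with a median of 273.6 CPM over 25 libraries. Its order of means was sgDDX3 (159.3), sgGal4 (161.7), uninfected (181.0), sgNUP160 (206.7), sgCNOT1 (238.3), WT (260.4), T532M (290.7) and then the 6 others, up to 349.1 CPM in R326H. sgDDX3 and sgGal4 do not differ beyond their spread, nor do neighbours among the last 6. The guide and transgene sets cannot be told apart from other differences between those experiments. NUP107 ran from 67.6 CPM in sgDDX3 to 136.0 CPM in sgCNOT1, and SEH1L from 52.2 CPM in sgCNOT1 to 95.3 CPM in R534S. NUP85 ran from 35.9 CPM in sgDDX3 to 78.2 CPM in noTG, and NUP37 from 25.0 CPM in sgDDX3 to 53.2 CPM in uninfected cells. NUP133 (109.9 to 169.6 CPM), NUP43 (92.4 to 145.8 CPM), NUP98 (176.7 to 278.8 CPM) and SEC13 (92.1 to 167.9 CPM) spanned less than 2-fold, as did SEH1L.

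As a description of likeness, the gene closest to NUP107 over the 13 genotype means of log2 CPM in the nuclear-labelled libraries was PSMA5, a proteasome subunit, with a Pearson r of 0.98, among 13787 genes. Within the 9 genotypes of the transgene set that r was 0.94. NCAPH and PSMD14 followed, both at 0.97. For AHCTF1 the closest were LRRC58 (0.99), BAZ1A (0.98) and the basket nucleoporin NUP153 (0.98). For NUP160 they were FBXO22 (0.93), SLC29A2 (0.90) and WDR1 (0.88). The last 2 had an r of only 0.15 and 0.16 within the transgene set, where NUP160 was not targeted. These points share libraries, and the sets differ in level.

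Other parts of the pore were set beside the partners. Of 23 nucleoporins outside the Y complex, sgNUP160 called 1 higher and 5 lower in the nuclear-labelled and 4 lower in the cytoplasmic-labelled libraries. Of all genes 7.36% were higher and 8.54% lower under the nuclear and 8.13% lower under the cytoplasmic label. NUP210, a membrane-spanning nucleoporin, fell by 0.65 and by 1.25 on the log2 scale. NUP205, an inner ring scaffold, fell by 0.24 and by 0.68, and NUP62 of the central channel by 0.28 and by 0.48. NUP54 of the channel (-0.41 ± 0.11) and GLE1, the export factor at the cytoplasmic face (-0.37 ± 0.10), fell in the nuclear-labelled libraries, and NDC1, a membrane anchor of the pore, in the cytoplasmic-labelled ones (-1.45 ± 0.26). POM121C rose (0.41 ± 0.11) under the nuclear label, and its reads may be split with its near-copy POM121. The median of the 23 was -0.16 and -0.39.

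The other complexes that hold SEC13 or SEH1L were read with sgNUP160 in the same way, where 15.9% of all genes were called under the nuclear and 15.2% under the cytoplasmic label. Of the 3 further GATOR2 genes 0 were called by edgeR under either label, with 0 and 1 at an unadjusted p under 0.05. Of 12 COPII genes SEC24A rose in the nuclear-labelled libraries (0.51 ± 0.12) and SEC16A fell in the cytoplasmic-labelled ones (-0.49 ± 0.15). In the latter the medians were -0.23 for GATOR2 and -0.30 for COPII, beside -0.21 for the partners and 0.03 for all genes. Among 29 karyopherins, the carriers that pass through the pore, 6 rose and 7 fell in the nuclear-labelled libraries, against 7.36% and 8.54% of all genes. The import receptors KPNA5 (0.71 ± 0.21), KPNA3 (0.56 ± 0.11) and KPNA4 (0.45 ± 0.12) rose. TNPO3 (-0.44 ± 0.08), IPO5 (-0.41 ± 0.07) and the tRNA exporter XPOT (-0.37 ± 0.08) fell. Under the cytoplasmic label 4 fell, against 8.13% of genes, among them IPO5 (-1.0 ± 0.20), IPO8 (-0.88 ± 0.22) and XPOT (-0.87 ± 0.20).

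Of K562's own erythroid markers 4 of 7 tested rose beside AHCTF1 in the sgNUP160 nuclear-labelled libraries, against 7.36% of all genes, with HBG2 (1.20 ± 0.30), HBG1 (0.81 ± 0.26) and TFRC, the transferrin receptor (0.79 ± 0.07), the largest. A positive log2 change was seen in 5 of the 7. The summed level of the 8 markers was 1243 to 1318 CPM with sgNUP160 and 894.0 to 925.5 CPM with sgGal4. TFRC, at 397.3 to 796.5 CPM over the 25 nuclear-labelled libraries, was the largest part of such sums. HBG1 reached at most 30.9 CPM there and HBG2 at most 15.3 CPM. Under the cytoplasmic label edgeR called 0 of 5, with 1 at an unadjusted p under 0.05 and a median of -0.19, and the sums overlapped, at 1465 to 1744 CPM against 1586 to 1868 CPM. The 10 markers of other cell types summed to 33.0 to 38.9 CPM against 25.3 to 28.7 CPM under the nuclear label. Under the cytoplasmic label the order was the reverse, 29.5 to 37.3 CPM with sgNUP160 against 47.6 to 55.8 CPM. In the nuclear-labelled libraries LYZ rose (0.87 ± 0.26) while KRT5 stayed at 0. Under the cytoplasmic label EPCAM fell (-1.20 ± 0.33), and CD14, at up to 3.40 CPM, was called higher. The part of these shifts in the partners' changes was not tested.

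Same-strand neighbours can share reads with some members: by annotation NUP133 shares 478 exon bases with a non-coding RNA, NUP98 shares 133 with CHRNA10, AHCTF1 shares 81 with KIF28P and NUP160 shares 49 with RNA5SP340. Counts of these genes hold that limit in every library.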

How the data were processed

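Per the labels' protocols, rRNA-depleted directional libraries were made from fractionated K562 cells. Alignment used STAR 2.7.5a and the GRCh38 build, per the submitters' processing notes, and the gene annotation was not stated. The deposited files hold raw read counts per gene with no normalization by the authors, in the layout of STAR's gene counts. Of 60664 identifiers, 60463 were named from a symbol table, and positions came from GENCODE release 29 on GRCh38.

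Sense-strand counts were used, and reads in no gene feature were left out of library sizes. The tests were edgeR's (4.0.16, in R 4.3.3) robust quasi-likelihood fits, a separate fit for each set and labelled fraction and a joint fit for both fractions of a set. TMM normalization, the default expression filter and a Benjamini-Hochberg adjusted p under 0.05 over all genes tested were used. The script was tested on simulated data. The alternatives were RLE scaling, library size only, other filters, DESeq2 1.42.0, unstranded counts, the replicate number as a block, only the compared groups, R376C nuclear-labelled replicate 2 kept, and leaving out each library. The text names all 10 members, the nearest protein-coding neighbours of NUP160 and, in each further list, up to 3 rises and 3 falls with sgNUP160. For some members it adds the genes of most similar pattern. The members and lists were chosen with earlier results of these data known. The labels do not say whether replicates are separate cultures, so the p-values cover library-to-library spread alone, which may be technical. Intervals cover the 95% level.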

Additional observations from a re-analysis of the deposited data

How the results depend on the processing

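Leaving out each library in turn (a lone sample was then assumed to vary like the other groups) gave these lowest and highest counts of called members. With sgNUP160 against sgGal4 it was 0 to 1 nuclear-labelled, 0 to 1 cytoplasmic-labelled and 0 to 1 for the ratio, with 955 to 1202 and 221 to 1106 genes called beside 2277 and 2442. For sgDDX3 it was 3 to 4 and 0 to 0, for sgCNOT1 3 to 6 and 0 to 7, for sgNUP160 against sgDDX3 1 to 3 and 0 to 0, and against sgCNOT1 1 to 8 and 0 to 3. For noTG against WT it was 2 to 4 and 0 to 2, for noTG against uninfected 5 to 7 and 1 to 5, for WT against uninfected 3 to 4 and 0 to 0, and for the mutants 16 to 23 and 0 to 5. Between labels it was 5 to 6 in sgGal4 and 8 to 9 in uninfected cells.

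Other alternatives changed these counts, and the cause was not tested. Nuclear-labelled: sgNUP160 against sgGal4 gave 1 without the filter and 1 with DESeq2. Library size only gave 6 for sgCNOT1 and 7 for WT against uninfected. Only the compared groups gave 3 for sgNUP160 against sgCNOT1. Keeping R376C replicate 2 gave 0 for noTG against WT, 1 for noTG against uninfected, 0 for WT against uninfected and 1 for the mutants. Cytoplasmic-labelled: sgDDX3 gave 1 with RLE, 2 without the filter, 1 with the CPM filter, 1 with DESeq2, 2 with the replicate block and 2 with only the compared groups. sgCNOT1 gave 1 without the filter. Library size only gave 2 for sgNUP160 against sgCNOT1 and 3 for WT against uninfected, which unstranded counts took to 0. Only the compared groups gave 0 for sgCNOT1, 1 for sgNUP160 against sgDDX3, 0 for noTG against WT, 0 for noTG against uninfected, 4 for WT against uninfected and 8 for the mutants. The ratio gave 1 with unstranded counts and 1 with only the compared groups, which also called 3521 and 5108 genes with sgNUP160.

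Some log2 values changed sign. With sgNUP160, nuclear-labelled NUP98 gave 0.0074 (RLE), 0.015 (library size), 0.025 (no filter), 0.0065 (DESeq2) and 0.014 (only the compared groups). Cytoplasmic-labelled, NUP85 gave 0.044 and NUP43 0.11 (library size), and AHCTF1 -0.033 (no filter), -0.038 (CPM filter) and -0.14 (unstranded). In the ratio, NUP133 gave -0.022, SEC13 -0.051 and NUP43 -0.20 (library size), NUP43 -0.097 (RLE) and -0.10 (DESeq2), and SEH1L 0.047 (unstranded). With sgDDX3, cytoplasmic-labelled NUP85 gave 0.0010 and AHCTF1 0.0090 (library size), and SEC13 -0.028 (no filter) and -0.031 (CPM filter). SEH1L gave 0.0022 with sgCNOT1, nuclear-labelled (library size). Between labels, NUP98 gave -0.060 in sgGal4 and -0.25 in uninfected cells (library size), and in the latter NUP107 0.031 and AHCTF1 0.081 (unstranded). Left-out libraries gave, with sgNUP160, NUP98 -0.044 to 0.055 and SEH1L -0.11 to 0.15 nuclear-labelled, AHCTF1 -0.091 to 0.068 and NUP43 -0.40 to 0.13 cytoplasmic-labelled, and NUP43 -0.14 to 0.37, NUP85 -0.41 to 0.058 and SEH1L -0.32 to 0.11 in the ratio. With sgDDX3 they gave NUP98 -0.0048 to 0.071 and SEH1L -0.095 to 0.091 nuclear-labelled, and AHCTF1 -0.14 to 0.017, NUP43 -0.24 to 0.050, NUP85 -0.14 to 0.0042, SEC13 -0.061 to 0.038 and SEH1L -0.040 to 0.099 cytoplasmic-labelled. With sgCNOT1 they gave SEH1L -0.17 to 0.016 nuclear-labelled, and AHCTF1 -0.25 to 0.37, NUP98 -0.43 to 0.012 and SEH1L -0.039 to 0.099 cytoplasmic-labelled.

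The labels do not say what a replicate number marks. Deviations of same-numbered sgGal4 and sgNUP160 libraries correlated at -0.0049 nuclear-labelled and 0.033 cytoplasmic-labelled, and among cytoplasmic-labelled guides sgCNOT1 gave 0.27 with sgGal4 and 0.13 with sgDDX3. The replicate block gained cytoplasmic-labelled NUP107 and NUP98 with sgDDX3. It lost, nuclear-labelled, NUP37 in sgNUP160 against sgCNOT1 (-0.30, adjusted p = 0.057), SEC13 in noTG against uninfected (0.17, adjusted p = 0.053) and SEH1L in T532M (0.22, adjusted p = 0.0504). With 2 libraries a group and 27 to 186 reads a library, small changes of cytoplasmic-labelled NUP37 were not detectable.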
